A study of Bos taurus with 12 samples.

Results

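Respiratory complex I was followed at the RNA level in the liver of 4-d-old Holstein heifer calves. Its members were taken as every gene of the count files whose bovine RefSeq symbol, looked up by Entrez gene ID, begins with NDUF. All 47 such symbols of the bovine RefSeq table were found among the 30336 gene IDs of the files, 39 of them as subunits and 8 as assembly factors (symbols that begin with NDUFAF). Only some calves of the feeding trial were sampled. Both groups were managed alike from birth on, but the calves were offered colostrum of their own dams. Their dams received a basal close-up diet with no added Met (CON) or the same diet plus ethyl-cellulose rumen-protected methionine (MET) during the last 28 d prepartum. Liver was sampled by puncture biopsy, and 12 stranded mRNA libraries, 6 per diet, were sequenced together on 1 lane. Counted reads ranged from 8277789 to 10397604 per library. All CON libraries carried one first index and all MET libraries another, so an effect of the index cannot be told apart from one of the diet.

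The libraries CON1 and CON4 differed by little more than counting noise (chi-square per gene 1.31), as did MET1 and MET3 (1.23), whereas the other 64 pairs lay between 23.3 and 122. Each of these pairs was therefore summed and counted as 1 sample, which left 5 samples per diet. MET5 stood apart from the other libraries over all genes. Its 11 pairs had a chi-square per gene of 47.8 to 122 (median 102), the other 53 pairs 23.3 to 75.5 (median 35.1), and its 10 most abundant genes held 30.5% of its reads, against 21.1% to 27.5% in the other libraries. The part of this in the subunit values was not tested, and the counts of members are given with and without MET5. Values per sample are given throughout in the order CON1+4, CON2, CON3, CON5 and CON6, then MET1+3, MET2, MET4, MET5 and MET6. They are CPM values, read counts scaled to a common library size after TMM normalization. Tests are from the quasi-likelihood test of edgeR over all 13242 genes that passed the filter on low counts, with the false discovery rate (FDR) set over all of them at 0.10. Each library is labelled as a separate sample, and the p-values measure the spread between these samples.

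Complex I is the entry point of the mitochondrial respiratory chain. It takes electrons from NADH, which fatty acid oxidation and the citric acid cycle supply in large amounts in hepatocytes, passes them to ubiquinone and pumps protons across the inner membrane. Its matrix arm holds the flavin and the iron-sulfur clusters, and its membrane arm holds the proton pumps, whose core subunits are encoded by mitochondrial DNA. Around these core subunits sits a shell of accessory subunits encoded in the nucleus, and a set of assembly factors builds the complex without remaining in it. The mitochondrially encoded subunits were not analysed here.

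Of the 47 genes, 46 passed the filter on low counts, that is 38 of the 39 subunits and all 8 assembly factors. NDUFA4L2, a paralog of NDUFA4 known for its response to hypoxia, did not pass. It had 2 to 18 reads per library and read 0.224, 0.628, 0.228, 1.35 and 1.87 in CON and 1.03, 0.293, 0.805, 0.447 and 0.412 in MET (CPM). NDUFA4L2 was thus low in every sample, and the diets overlapped. Its level per kilobase, 0.731 CPM, was below that of every other member. Of the 47 genes, 8 share exonic bases with a gene on the opposite strand, NDUFA2, NDUFA10, NDUFB9, NDUFS1, NDUFAF1, NDUFAF3, NDUFAF7 and NDUFA4L2. NDUFS7 shares 74 bases with a gene on its own strand, so that its counts are less certain.

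Levels between genes were compared as the mean CPM over the 10 samples per kilobase of annotated exon. The 38 subunits had a median of 70.9 CPM per kilobase, against 5.12 for all genes tested, and this subunit median exceeded the level of 93.5% of the genes tested. The 8 assembly factors had a median of 5.03 CPM per kilobase, 14.1-fold below that of the subunits. NDUFA4, first described with complex I and now known as a subunit of cytochrome c oxidase, was highest at 319 CPM per kilobase. NDUFA13 of the proximal membrane arm followed at 177. NDUFA12, an accessory subunit of the matrix arm, was the lowest of the subunits that passed the filter at 18.0, so the subunits spanned 17.7-fold. Among the core subunits of the matrix arm NDUFS1, which holds several iron-sulfur clusters, was lowest at 24.1. In the accessory shell of the matrix arm NDUFA6 was highest at 137. In the proximal membrane arm NDUFC1 was lowest at 30.9. In the distal membrane arm NDUFB10 was highest at 126 and NDUFB5 lowest at 48.1 CPM per kilobase. The assembly factors ranged from 2.89 for NDUFAF1, which acts in an early membrane-arm intermediate, to 22.9 for NDUFAF8, a partner of NDUFAF5.

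**Figure D1:**
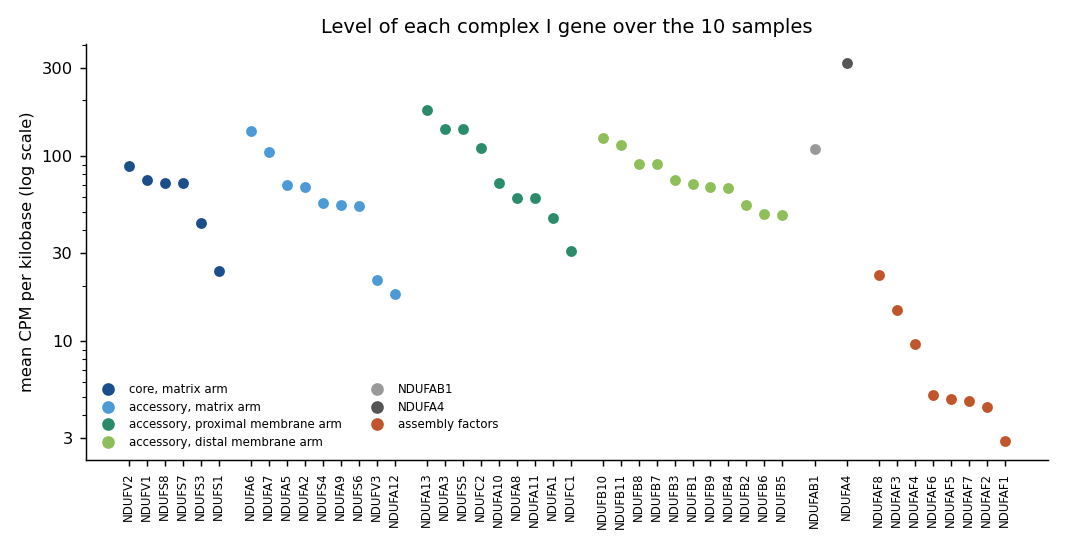
Mean level of 45 of the 46 complex I genes over the 10 samples, as CPM per kilobase of exon on a log axis, grouped by role and ordered within each group. NDUFA4 is highest and NDUFAF1 lowest, and 7 of the 8 assembly factors lie below every subunit that passed the filter.

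The main question was whether maternal methionine supply went with a different level of these genes in the calf liver. No member passed the FDR threshold in edgeR over the 10 samples, and none of the 13242 genes did (0.0%). The lowest FDR over all genes was 0.156. Of the 46 members, 42 had a higher fitted level in MET, against 49.5% of all genes tested. At an unadjusted p of at most 0.05, 14 members were higher in MET and 0 were lower. This is 14 of 46, where 7.83% of all genes were higher and 8.52% lower at the same p. DESeq2 over the same 10 samples placed 1 member at an FDR of at most 0.10, NDUFAF3, against 4.83% of all genes. The median log2 fold change was 0.28 for the 38 subunits, that is 21.3% higher in MET, and 0.16 for the 8 assembly factors, beside -0.0028 for all genes. The SE of a member ranged from 0.11 to 0.29 on the log2 scale with a median of 0.18.

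**Figure D2:**
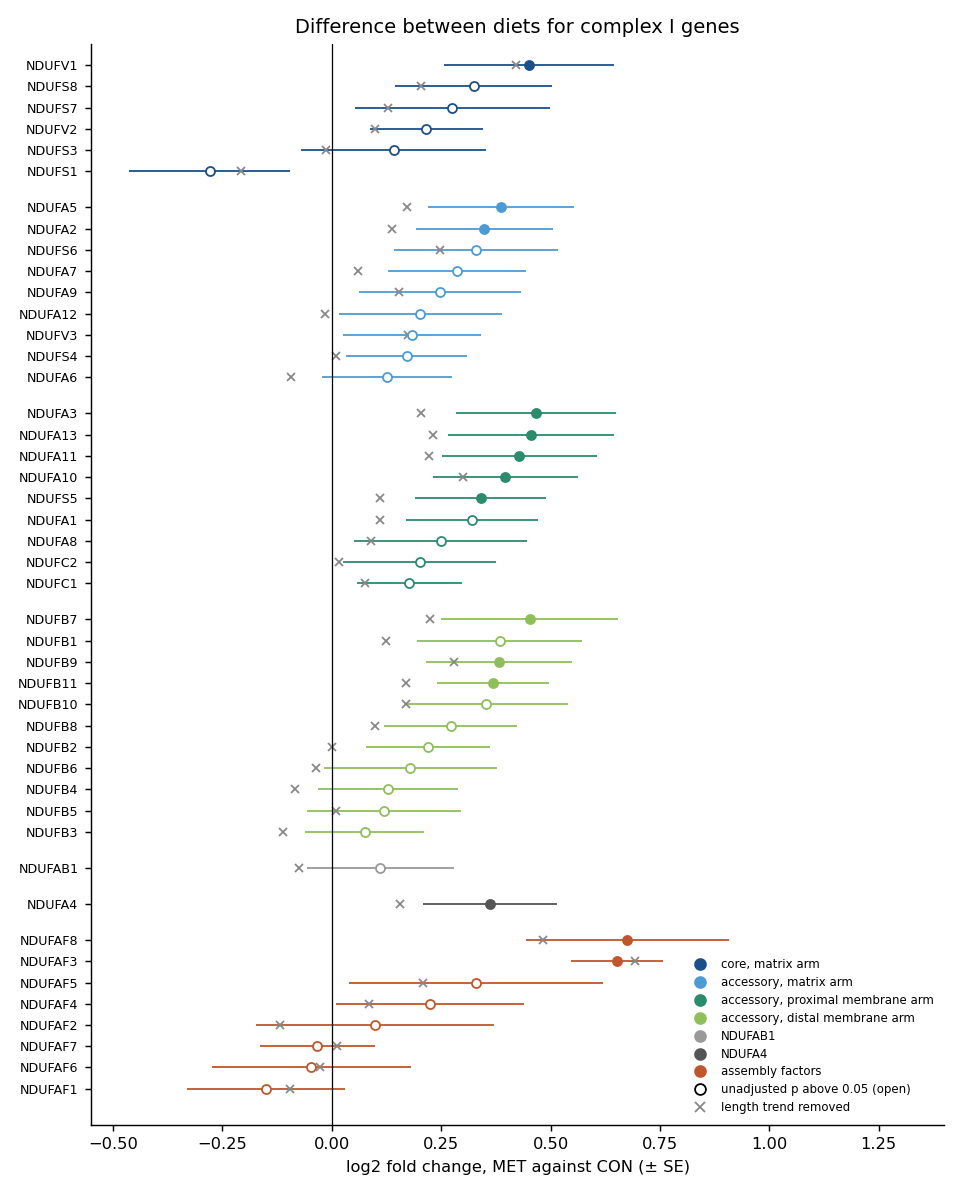
Log2 fold change of MET against CON with its SE for 45 of the 46 genes, by role (n = 5 samples per diet). Filled circles mark the 14 genes with an unadjusted p of at most 0.05, open circles the others, and crosses the estimate after a trend on exonic length was removed. Nearly all circles lie right of 0, NDUFS1 and 3 assembly factors excepted, and most crosses lie closer to 0.

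Of the 7 core subunits of the matrix arm, 6 had a higher fitted level in MET and 1, NDUFV1, reached an unadjusted p of 0.05. NDUFV1 binds the flavin and accepts the electrons of NADH. NDUFV1 read 100.2, 124, 105, 126 and 99.9 in CON and 140.1, 187, 152, 86.7 and 192 in MET. MET5 was below every CON sample, and the other 4 MET samples were above all of them (log2 fold change 0.45 ± 0.19 (SE), unadjusted p = 0.0387, FDR = 0.284). NDUFV1 lies on chromosome 29 of UMD 3.1.1, from 46108033 to 46114242 on the plus strand, and NDUFS8 begins 90507 bases further on the same strand. NDUFS8, a ferredoxin-like subunit, averaged 67.6 ± 11.4 CPM in CON and 84.6 ± 20.7 CPM in MET (SD, n = 5 per diet), a log2 difference of 0.32 ± 0.18. Other core subunits had log2 differences of 0.28 ± 0.22 for NDUFS7, 0.22 ± 0.13 for NDUFV2 and 0.14 ± 0.21 for NDUFS3. None of these reached an unadjusted p of 0.05.

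The core subunit NDUFS1 read 72.1, 111, 126, 114 and 111 in CON and 80.2, 112, 94.1, 59.7 and 94.2 in MET. CON1+4 was the low exception in CON, the other CON samples lay at 111 to 126 CPM, and of the MET samples only MET2 reached that range, the other 4 lying below it as CON1+4 did (log2 fold change -0.28 ± 0.18 (SE), unadjusted p = 0.156, FDR = 0.474). NDUFS1 was the only one of the 38 subunits with a lower fitted level in MET. It also has the longest exonic length of the subunits, 4044 bases, and shares exonic bases on the opposite strand with a gene that has no symbol in the table.

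All 9 accessory subunits of the matrix arm had a higher fitted level in MET, and 2, NDUFA5 and NDUFA2, reached an unadjusted p of 0.05. NDUFA5 read 25.4, 35.7, 37.2, 36.2 and 33.1 in CON and 33.7, 51.0, 50.8, 32.5 and 50.8 in MET. MET2, MET4 and MET6 lay above every CON sample and the other MET samples lay among them (log2 fold change 0.39 ± 0.17 (SE), unadjusted p = 0.0389, FDR = 0.285). The log2 differences of the 9 genes ranged from 0.13 ± 0.15 for NDUFA6 to the value of NDUFA5. NDUFA12, the lowest of the group in level, averaged 9.16 ± 1.66 CPM in CON and 10.5 ± 2.47 CPM in MET.

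The proximal membrane arm, where the accessory subunits surround the junction of both arms, held the most members with a small p over the 10 samples. All 9 of its genes had a higher fitted level in MET, and 5 reached an unadjusted p of 0.05, beside 7.83% of all genes. With the length trend removed all 9 stayed higher and 0 reached that p. Their median was then 0.11, beside 0.14 and 0.13 for the accessory and core subunits of the matrix arm. NDUFA3 read 36.1, 44.3, 35.1, 40.7 and 37.7 in CON and 47.1, 58.0, 56.1, 32.5 and 74.2 in MET. MET5 lay below every CON sample and the other 4 MET samples above all of them (log2 fold change 0.47 ± 0.18 (SE), unadjusted p = 0.0256, FDR = 0.250). NDUFA10, a subunit of a nucleoside kinase fold, read 67.3, 83.6, 82.2, 79.5 and 73.3 in CON and 95.1, 115, 122, 63.5 and 112 in MET, again with MET5 as the lowest of all 10 (log2 fold change 0.40 ± 0.17 (SE), unadjusted p = 0.0338, FDR = 0.272). NDUFA11, a membrane subunit needed for stability of the complex, read 21.7, 35.3, 26.3, 32.8 and 25.8 in CON and 34.2, 45.1, 38.3, 26.4 and 46.6 in MET. MET2, MET4 and MET6 exceeded every CON sample (log2 fold change 0.43 ± 0.18 (SE), unadjusted p = 0.0319, FDR = 0.268).

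NDUFA13, also known as GRIM-19, read 67.8, 92.5, 77.1, 90.1 and 75.7 in CON and 90.5, 134, 99.0, 75.2 and 154 in MET. The high samples were MET2 and MET6, and MET1+3 and MET5 lay within the CON range (log2 fold change 0.45 ± 0.19 (SE), unadjusted p = 0.0334, FDR = 0.271). NDUFS5, a subunit with a twin cysteine motif, read 55.5, 65.4, 50.9, 64.1 and 60.8 in CON and 63.2, 81.0, 71.2, 59.7 and 101 in MET. MET2, MET4 and MET6 were again above all CON samples (log2 fold change 0.34 ± 0.15 (SE), unadjusted p = 0.0425, FDR = 0.291). The remaining members of this arm ranged from 0.18 ± 0.12 for NDUFC1 to 0.32 ± 0.15 for NDUFA1.

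All 11 NDUFB genes, which code for the distal membrane arm, had a higher fitted level in MET, and 3 reached an unadjusted p of 0.05. NDUFB11, an X-linked gene, read 60.9, 70.4, 53.7, 60.4 and 59.1 in CON and 69.1, 79.2, 81.3, 65.7 and 97.8 in MET. The MET samples MET2, MET4 and MET6 were above every CON sample, and MET1+3 and MET5 were below the highest, CON2 (log2 fold change 0.37 ± 0.13 (SE), unadjusted p = 0.0143, FDR = 0.213). This was the smallest p among the subunits. NDUFB9, of the LYR motif family, read 62.2, 73.4, 62.9, 84.2 and 76.5 in CON and 83.5, 111, 92.1, 63.7 and 117 in MET, with the same 3 MET samples on top (log2 fold change 0.38 ± 0.17 (SE), unadjusted p = 0.0413, FDR = 0.289). NDUFB7 was the third, at 0.45 ± 0.20. The other 8 ranged from 0.08 ± 0.14 for NDUFB3 to 0.38 ± 0.19 for NDUFB1, and NDUFB3 turned direction with the length trend removed.

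NDUFAB1, the mitochondrial acyl carrier protein, serves complex I and fatty acid synthesis alike. It averaged 70.6 ± 8.71 CPM in CON and 76.2 ± 18.0 CPM in MET, a log2 difference of 0.11 ± 0.17. NDUFA4 read 149.7, 177, 136, 181 and 161 in CON and 182, 225, 218, 153 and 255 in MET. MET5 lay within the CON range and the other 4 MET samples exceeded every CON sample (log2 fold change 0.36 ± 0.15 (SE), unadjusted p = 0.0351, FDR = 0.276).

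Among the 8 assembly factors 5 had a higher and 3 a lower fitted level in MET, and 2 reached an unadjusted p of 0.05. NDUFAF3 acts with NDUFAF4 in the early assembly of the module that joins the matrix arm to the membrane. It read 35.2, 33.5, 35.3, 40.0 and 34.2 in CON and 48.2, 62.8, 54.6, 53.3 and 61.3 in MET. All 5 MET samples lay above all 5 CON samples. It was the only member whose diets did not overlap with MET higher, 1 of 46, which is near the share of all genes tested, 1.91%. NDUFAF3 was 57.1% higher in MET over the 10 samples (log2 fold change 0.65 ± 0.11 (SE), unadjusted p = 4.8e-05, FDR = 0.156). Its two-sided exact permutation p was 0.00794, the smallest that 252 arrangements of 5 against 5 allow. Any gene without overlap between the diets has this p, so it adds nothing to the separation of the samples. With each of the 12 libraries as its own sample, the design of the study, edgeR gave 0.62 ± 0.09 with FDR = 0.0381. NDUFAF3 was then the 1 member among 46 past the threshold, where 4.41% of all 13212 genes tested passed. This fit counts the libraries of the near-identical pairs as separate samples. With a replicate block over the 12 libraries NDUFAF3 was at FDR = 0.143, although same-numbered libraries did not deviate together. Over the 10 samples its FDR was 8.3e-05 in DESeq2, 0.152 to 0.279 under the other normalizations, filters and tests, and 0.09998 to 0.254 when 1 sample was left out. NDUFAF3 lies on chromosome 22 of UMD 3.1.1, from 51540959 to 51545067 on the minus strand, with 3095 exonic bases. These overlap a microRNA gene, MIR425, annotated on the opposite strand, and the counting of the authors used strand.

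NDUFAF8 had a fitted fold change near that of NDUFAF3 and a larger error. It read 9.68, 16.3, 12.8, 11.03 and 10.8 in CON and 12.3, 19.7, 15.0, 19.3 and 30.4 in MET. MET6 was well above the rest, MET2 and MET5 were also above every CON sample, and MET4 and MET1+3 lay within the CON range (log2 fold change 0.68 ± 0.23 (SE), unadjusted p = 0.0129, FDR = 0.210). The partner of NDUFAF3, NDUFAF4, averaged 7.47 ± 1.70 CPM in CON and 8.69 ± 2.35 CPM in MET with a log2 difference of 0.22 ± 0.21. The partner of NDUFAF8, NDUFAF5, had a log2 difference of 0.33 ± 0.29. NDUFAF1 read 10.1, 9.17, 11.5, 11.3 and 13.4 in CON and 10.7, 9.07, 13.9, 9.17 and 7.11 in MET. Its diets overlapped over nearly their whole range (log2 fold change -0.15 ± 0.18 (SE), unadjusted p = 0.419, FDR = 0.713). NDUFAF2, NDUFAF6 and NDUFAF7 lay within 0.10 of 0 on the log2 scale, and each turned direction under some alternatives.

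**Figure D3:**
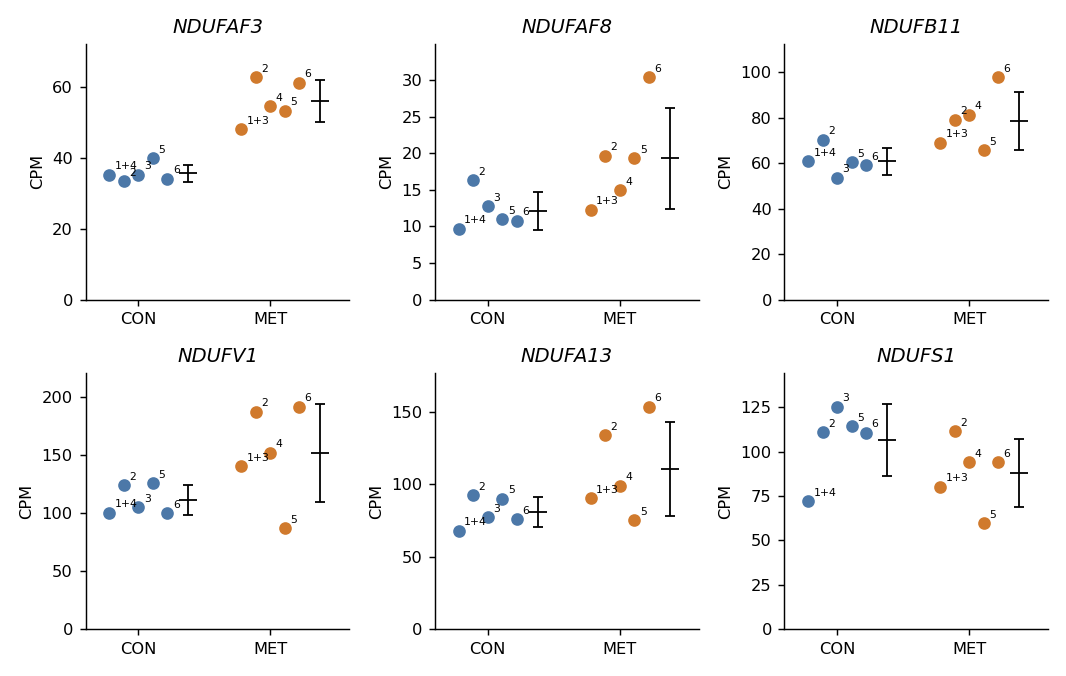
CPM in each sample of the assembly factors NDUFAF3 and NDUFAF8 and the subunits NDUFB11, NDUFV1, NDUFA13 and NDUFS1. Numbers beside points are the replicate numbers, and the bars to the right of each group are the mean ± SD (n = 5). The NDUFAF3 samples separate by diet, with CON at 33.5 to 40.0 CPM and MET at 48.2 to 62.8 CPM. MET5 is low in NDUFV1, NDUFA13 and NDUFS1.

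The subunits moved together from sample to sample. When each gene was set against its own mean over the 10 samples, the median deviation of the 38 subunits was -0.34, 0.074, -0.26, 0.0045 and -0.15 on the log2 scale in the CON samples and 0.0083, 0.42, 0.11, -0.32 and 0.45 in the MET samples. MET2, MET4 and MET6 lay above the highest CON sample on this median, MET1+3 lay between CON5 and CON2, and MET5 lay beside CON1+4 at the bottom. In MET5 all 38 subunits were below their mean, as they were in CON1+4, while in MET2 all 38 and in MET6 37 were above it. MET5 was the lowest MET sample in 33 subunits, MET2 was the highest in 17 and MET6 in 19. MET2 exceeded every CON sample in 35 subunits, MET6 in 34, MET4 in 18, MET1+3 in 9 and MET5 in 0. Summed over the 39 subunits, CON samples held 1886 to 2540.0 CPM and MET samples 1887 to 3271 CPM. The SD in MET was above that in CON in 36 of 38 subunits. The assembly factor NDUFAF3, by contrast, read 53.3 CPM in MET5, above every CON sample.

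**Figure D4:**
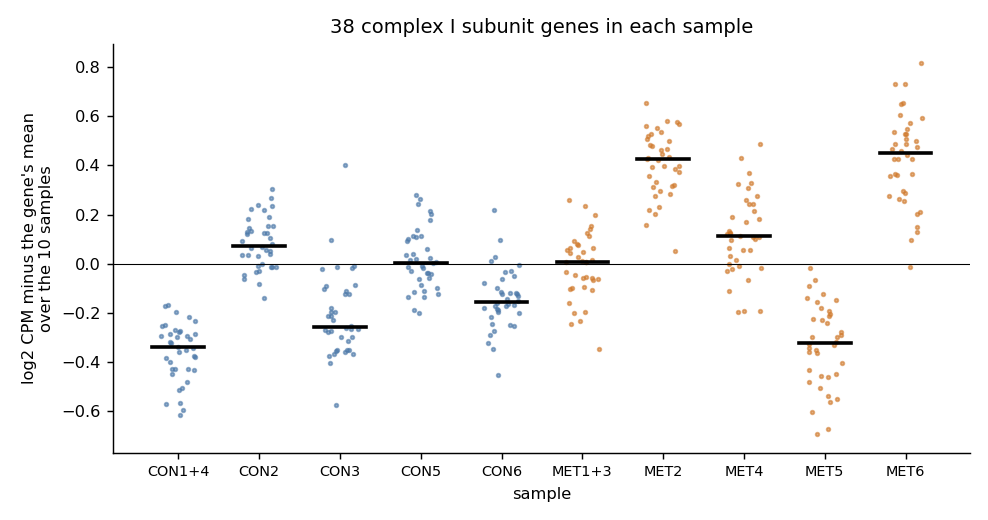
Log2 CPM of the 38 subunits in each sample minus the mean of the gene over the 10 samples (1 point per gene, bar at the median). The points of MET2 and MET6 lie almost wholly above 0, and those of CON1+4 and MET5 lie wholly below it.

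The counts of members followed these samples. Without MET5, 26 of 46 members were higher in MET at an unadjusted p of at most 0.05, beside 7.1% of the genes tested in that fit. All 14 members at that p over the 10 samples were among them. MET5 was the lowest MET sample in 11 of the 14, so that they remained is no separate support. The diets of 5 members then did not overlap, all with MET higher, beside 2.78% of the genes in that fit. Without CON2 they numbered 2, beside 3.11%, and without any other sample 1 of 46, beside 2.31% to 3.58%, near the share of all genes. The 26 included 5 of the 7 core subunits and 24 subunits in all. Without MET2 the count of members higher in MET was 3 of 46, where 6.99% of all genes were higher at the same p, and without MET6 it was 3, where 6.26% were. Both counts are near the share of all genes. Without CON1+4 it was 3, beside 7.05%, and NDUFS1 was then lower in MET at an unadjusted p of 0.0383. Without CON6 the count was 4, beside 6.76%, without CON3 it was 5, beside 6.15%, and without MET4 it was 8, beside 6.59%. Without CON2, CON5 or MET1+3 it was 15, 11 and 16, beside 7.46%, 6.71% and 8.27%. No member passed an FDR of 0.10 without MET5, and NDUFAF3 did so without MET1+3, at FDR = 0.09998, beside 0% and 0.292% of all genes in those fits. With all 12 libraries counted apart, 19 members were higher at an unadjusted p of at most 0.05, beside 10.2% of all genes.

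The subunit genes are short, and short genes had a higher median fitted level in MET than long ones. The 39 subunits had a median exonic length of 684 bases, and 38 of them were below the median of all genes tested, 2806.5 bases. Among genes that were not members, the median log2 fold change was 0.19 in the shortest of 10 equal groups by length (up to 1124 bases) and -0.14 in the longest group. The 29 subunits that passed the filter and were no longer than 1124 bases had a median of 0.28. Over the 46 members the log2 fold change had a Pearson correlation of -0.40 with log2 exonic length, and over all genes tested one of -0.26. These correlations are across genes that share the same samples and are given as descriptions.

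When a smooth trend on length was removed from each sample, the median was 0.12 for the subunits and 0.05 for the assembly factors, beside 0.02 for all genes. The number of members with a higher fitted level in MET was then 35 of 46, where 53.7% of all genes were higher. Members with an unadjusted p of at most 0.05 were 3, NDUFAF3, NDUFAF8 and NDUFV1, all higher in MET, beside 7.73% of all genes. NDUFAF3 kept a log2 difference of 0.69 ± 0.11 with FDR = 0.161. NDUFV1 was at 0.42 ± 0.19, and NDUFAF8 at 0.48 ± 0.19. The other 11 of the 14 members were above 0.05. Of the 14, 10 were no longer than 1124 bases. What gives the trend on length was not tested.

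**Figure D5:**
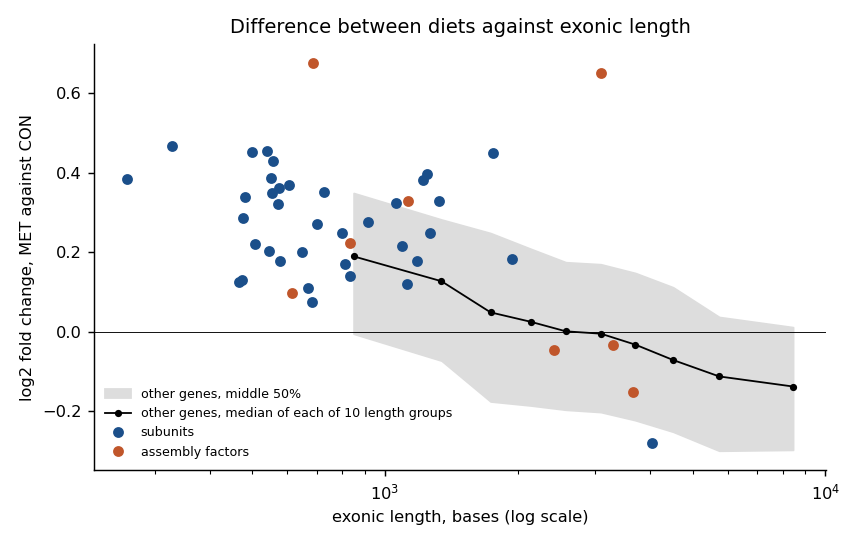
Log2 fold change of MET against CON by exonic length (log axis) for 45 of the 46 subunits and assembly factors, with the median and the middle 50% of all other genes in 10 equal groups by length. Most subunits lie left of the first median point, and NDUFAF3 lies above the middle 50% of genes of its length.

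Markers of the cells that a liver biopsy can hold were read beside these results. All 8 hepatocyte markers were abundant, with a summed level of 136226 to 183529 CPM in CON and 111181 to 144535 CPM in MET, and 4 skeletal muscle markers were at or near 0. The summed level of 6 macrophage markers was 988 to 1383 CPM in CON and 1398 to 1605 CPM in MET and did not overlap between diets. All 6 were higher in MET in the fit, CD14 by 0.70 ± 0.21 (SE), unadjusted p = 0.00550, FDR = 0.181. Of the 6, 2 reached an unadjusted p of 0.05, beside 7.83% of all genes higher in MET. With the length trend removed 5 were higher, MARCO was at -0.05, and 1 reached that p, beside 7.73% of all genes. Of the hepatocyte markers 7 of 8 were lower in MET, and 2 reached an unadjusted p of 0.05, beside 8.52% of all genes lower in MET. Albumin was at -0.66 ± 0.25 (SE), unadjusted p = 0.0212, FDR = 0.238. APOB, the structural protein of very low density lipoprotein, was at -0.41 ± 0.13 (SE), unadjusted p = 0.00796, FDR = 0.189, with 1114 to 1336 CPM in CON and 812 to 1042 CPM in MET and no overlap between diets, and its unadjusted p in edgeR was 0.109 with the length trend removed. The summed levels of erythroid, lymphocyte, endothelial, stellate cell and cholangiocyte markers overlapped between diets. In MET5, the low sample in subunits, the hepatocyte sum was 144535 CPM and the macrophage sum 1398 CPM, the highest and the lowest of the MET samples. Of the 8 hepatocyte markers, however, 5 (ALB, TTR, APOA1, TF and CPS1) were at their lowest of the 10 samples in MET5 and 2 (FGB and SERPINA1) at their highest. The part of cell makeup in the differences of the complex I genes was not tested, and in bulk tissue fewer cells of a type and less RNA per cell cannot be told apart.

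Assembly factors with other names were described by the same fit. Of 12 tested, 10 had a higher fitted level in MET, beside 49.5% of all genes, with a median log2 fold change of 0.20. At an unadjusted p of at most 0.05, 2 were higher, beside 7.83% of all genes. TMEM126B, a member of the early membrane-arm assembly complex, averaged 7.52 ± 1.03 CPM in CON and 9.84 ± 1.28 CPM in MET (SD, n = 5), a log2 difference of 0.38 ± 0.14 (SE), unadjusted p = 0.0208, FDR = 0.236. TMEM186, of the same complex, had one of 0.43 ± 0.19 (SE), unadjusted p = 0.0393, FDR = 0.285. With the length trend removed none of the 12 reached that p, TMEM126B and TMEM186 included. ACAD9, which joins them, was at -0.14 ± 0.18, and ECSIT at 0.37 ± 0.22.

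Complex II, which feeds electrons to ubiquinone from succinate, gave the nearest comparison in the chain. Its 4 genes had log2 differences of 0.05 ± 0.15 for SDHA, 0.12 ± 0.17 for SDHB, 0.14 ± 0.14 for SDHC and 0.02 ± 0.18 for SDHD. Their median was 0.09, and none reached an unadjusted p of 0.05. With the length trend removed their median was 0.03, beside 0.12 for the complex I subunits. The difference between the medians of complex II and complex I was not tested. In MET5 SDHA read 369, SDHB 132 and SDHD 110 CPM, each the lowest of the 10 samples, whereas SDHC did not have its lowest value there. Among other enzymes of the electron supply, NNT, which exchanges hydride between NADH and NADP, averaged 130.1 ± 24.3 CPM in CON and 98.5 ± 20.03 CPM in MET (-0.40 ± 0.17 (SE), unadjusted p = 0.0360, FDR = 0.279). Its unadjusted p in edgeR was 0.0694 with the length trend removed. ETFDH, GPD2 and DHODH, which donate electrons to ubiquinone, had an unadjusted p above 0.05.

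Regulators of mitochondrial genes, most of them transcription factors or their coactivators, were read in the same fit. Of 9 tested, 7 had a lower fitted level in MET, where 6684 of all 13242 genes did. Of the 7, 2 reached an unadjusted p of 0.05, beside 8.52% of all genes lower in MET at that p. The median of the 9 was -0.26 on the log2 scale. With the length trend removed it was -0.05, 6 were lower and 2 reached that p, where 864 of all 13242 genes were lower at it. TFAM, which packages mitochondrial DNA and takes part in its transcription, averaged 5.14 ± 1.59 CPM in CON and 3.32 ± 0.994 CPM in MET (-0.62 ± 0.27 (SE), unadjusted p = 0.0374, FDR = 0.282). YY1, a transcription factor of many respiratory genes, averaged 40.4 ± 5.01 CPM in CON and 31.9 ± 4.29 CPM in MET (-0.34 ± 0.13 (SE), unadjusted p = 0.0190, FDR = 0.230). PPARGC1A, the coactivator of mitochondrial biogenesis, was at -0.34 ± 0.21, NRF1 at -0.02 ± 0.12 and ESRRA at 0.18 ± 0.14, with an unadjusted p above 0.05 for each. With the length trend removed PPARGC1A was at -0.17, NRF1 at 0.11 and ESRRA at 0.20.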

How the data were processed

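Gene counts were deposited as raw counts per library in whole reads. The authors trimmed reads with Trimmomatic, mapped them with STAR 2.5.3a to UMD 3.1.1 and counted exonic reads by gene and strand with featureCounts of Subread 1.5.2. Depth was 8277789 to 10397604 counted reads per library, at which 3 reads are 0.289 to 0.362 CPM.

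Symbols came from the RefSeq gene table (25105 of 30336 IDs matched). Its assembly, ARS-UCD2.0, differs from that of the files, so coordinates are those of the count files. Near-identical libraries (chi-square per gene below 2) were summed. Counts were filtered with the defaults of filterByExpr, normalized by TMM and fitted with the quasi-likelihood test of edgeR 4.0.16 in R 4.3.3 on diet alone, with Benjamini-Hochberg adjustment over all genes. The fit was tested on simulated data. SE is the fold change divided by the square root of F. Log2 CPM used a prior count of 2. Alternatives used DESeq2 1.42.0, limma 3.58.1, other normalizations and filters, a loess trend on log2 exonic length (span 0.5), 12 separate libraries, a replicate block and leaving out each sample.

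The members and lists were chosen with earlier results of these data known. Named genes were the members with an unadjusted p of at most 0.05 (at most 12, by smallest p), members past an FDR of 0.10 in the 12 libraries, core subunits, in each role group the genes of highest and lowest level per kilobase and of largest decrease, and members that did not pass the filter. Members that bound a range were added after their values were seen, as were NDUFA2, NDUFB7, NDUFAF4 and NDUFAF5. One member is not reported here by name. Promoter and protein sequences were not used here, and the planned motif search was not run.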

Additional observations from a re-analysis of the deposited data

Results flagged for a closer look

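Each of the 46 members that passed the filter was checked in both diets for a sample set apart from the other 4, by Dixon's ratio on log2 CPM at its 95% critical value. Of the 92 groups, 5 held such a sample, and chance flags about 1 group in 20. NDUFS1 read 72.1 CPM in CON1+4, where the other CON samples lay at 111 to 126 CPM. NDUFB2, of the distal membrane arm, read 20.3 CPM in CON1+4 and 26.5 to 27.3 CPM in the others. NDUFA2 read 38.8 CPM in CON2 and 30.7 to 32.4 CPM in the others. NDUFAF7, a mitochondrial methyltransferase, held a sample of this kind in both diets, 19.6 CPM in CON3 against 14.5 to 15.3 CPM in the other CON samples, and 11.96 CPM in MET4 against 15.5 to 17.2 CPM in the other MET samples.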

How the results depend on the processing

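Members at an FDR of 0.10 numbered 0 in the 10 samples and 1 with the 12 libraries counted apart or in DESeq2 over the 10 samples, NDUFAF3 in each case, beside 0%, 4.41% and 4.83% of all genes. DESeq2 over the 12 libraries, added after seeing the data, gave 8, all higher in MET, beside 9.95% of all genes in either direction. Members at an unadjusted p of 0.05 numbered 9 without TMM factors (library size only) and 9 in limma voom, 7 of them subunits in both, and 6.92% and 7.72% of all genes were higher in MET at that p. With the length trend removed they numbered 3, of which 1 was a subunit, and over the 12 libraries, added after seeing the data, 5, of which 3 were subunits, beside 7.73% and 9.62% of all genes higher in MET. The median of all genes was -0.0237 with upper-quartile factors, 0.0135 with library size only, -0.00725 in voom, -0.0143 with no filter on low counts, 0.0245 with the length trend removed and 0.0188 with it removed over the 12 libraries. Of 37 members checked (25 by the rule and 12 named beside it), 8 turned direction under some alternative. With the length trend removed NDUFS3 was at -0.013, NDUFAB1 at -0.075, NDUFA6 at -0.094, NDUFA12 at -0.014, NDUFB3 at -0.11, NDUFAF2 at -0.12 and NDUFAF7 at 0.013. NDUFAF2 was at -0.056 and NDUFAF7 at 0.0041 with the 12 libraries counted apart, and NDUFAF2 at -0.060 in voom. With 1 sample left out, NDUFB3 ranged from -0.0051 to 0.17 (below 0 without MET2), NDUFAF2 from -0.035 to 0.26 (below 0 without MET2 or MET6), NDUFAF6 from -0.27 to 0.11 (above 0 without CON6 or MET5) and NDUFAF7 from -0.072 to 0.055 (above 0 without CON3 or MET4).

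Leaving out each sample in turn gave 0 to 1 members at an FDR of 0.10, 3 to 26 at an unadjusted p of 0.05 (1 to 24 subunits, 2 assembly factors each time) and 1 to 5 without overlap, and 6.15% to 8.27% of all genes were higher in MET at that p in these fits, 0% to 0.292% passed the FDR and 2.31% to 3.58% were higher without overlap. The members at that p were higher in MET, except 1 without CON1+4. The median was 0.20 to 0.39 for subunits, 0.034 to 0.25 for assembly factors and -0.0053 to 0.0069 for all genes. Leaving out each of the 12 libraries gave 1 to 4 members at an FDR of 0.10, 10 to 27 at an unadjusted p of 0.05 (8 to 25 subunits, beside 8.08% to 10.3% of all genes higher in MET) and 1 to 4 without overlap, beside 0.195% to 4.24% of all genes at that FDR and 1.46% to 2.24% higher without overlap, with medians of 0.21 to 0.37 for subunits, 0.059 to 0.19 for assembly factors and -0.0066 to 0.0023 for all genes.

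The labels number replicates 1 to 6 in both diets, but same-numbered libraries did not deviate together (correlations of -0.19 to 0.15, and 0 of 12 libraries correlated best with their own number). With a replicate block over the 12 libraries, 0 members passed an FDR of 0.10 (NDUFAF3 at FDR = 0.143), beside 0.0454% of all genes, and 16 reached an unadjusted p of 0.05, beside 8.02% of all genes higher in MET, with NDUFAF2 at -0.092 and NDUFAF7 at 0.0029 on the log2 scale. At this depth members had 17 to 2476 reads per library, NDUFA4L2 aside. The causes of these shifts were not tested.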

Other observations

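NDUFAF3 had the smallest spread of the 46 members within diets, with a pooled SD of 0.13 on the log2 scale, and NDUFAF5 the largest at 0.49. The median was 0.29 for the subunits and 0.29 for all genes tested.

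The 47 genes lie on 24 chromosomes of UMD 3.1.1, and 6 lie on chromosome 7, NDUFA2, NDUFA7, NDUFA11, NDUFA13, NDUFB7 and NDUFS7. The log2 differences of these 6 ranged from 0.28 to 0.45, and from 0.06 to 0.23 with the length trend removed. The X-linked members NDUFA1 and NDUFB11 were at 0.32 and 0.37. These genes were singled out after their values were seen.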
